A study of Mus musculus with 4 samples.

Results

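The histone genes of the mouse were followed on 4 one-colour Agilent arrays of embryonic stem (ES) cells with and without knock-down of FBL. Members were chosen by name: a gene entered when its RefSeq symbol, or an older symbol listed for the same gene, began with Hist1h, Hist2h, Hist3h, Hist4h, H2af, H3f or H1f, or was H1foo or H1fx. The centromeric histone gene Cenpa was left out. The RefSeq table listed 93 such genes, of which 44 had a probe, 31 from the histone gene clusters and 13 variant genes, among 17016 named genes on the array. These 44 genes were read by 57 of 41174 probes. The older Hist and H2af names of the rule are used throughout, because 32 of the 44 genes now carry other symbols in RefSeq. The 49 genes without a matched probe, H2afv among them, were not analysed here.

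Both groups were the same ES cell line, which carries a tetracycline (Tc)-inducible FBL knock-down system and was grown on gelatin with LIF, the cytokine that keeps mouse ES cells undifferentiated. The 2 FBL-knock down samples were kept without Tc for 2 days. The 2 control samples were kept for 2 days with Tc at 1000 ng/mL. The 2 groups therefore differ in Tc itself as well as in FBL, and effects of Tc and of FBL cannot be told apart in this design. Whether replicates came from separate cultures is not stated, so p-values rest on sample-to-sample spread that may be purely technical.

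Histones are the proteins around which DNA is wrapped: H2A, H2B, H3 and H4 form the nucleosome core, and H1 binds the linker DNA between nucleosomes. The clustered genes are transcribed mainly in S phase, and most of their mRNAs end in a stem-loop bound by SLBP in place of a poly(A) tail, whereas most variant genes are expressed outside S phase as well and give polyadenylated mRNAs. The linear amplification used to label these samples primes on poly(A), so the arrays may read the stem-loop mRNAs less fully than the variants. FBL, fibrillarin, is the methyltransferase of the box C/D snoRNPs that 2'-O-methylate ribosomal RNA, and it also methylates a glutamine of H2A in the nucleolus. H2A was therefore also set beside the other histones. Members of a histone class are nearly identical in their coding sequence, so a probe may read several genes, and each clustered gene named below is uncertain to that extent.

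Levels are given as log2 signal relative to the array's 75th percentile, and changes as FBL-knock down minus control on that log2 scale with the standard error (SE) of the fit. Fbl itself had levels of 5.98 and 5.94 in FBL-knock down cells, against 8.63 and 8.12 in control cells, 5.34-fold lower in the knock-down (log2 change −2.42 ± 0.25 SE, limma adjusted p = 6.39e-04). Each array had 59.5% to 64.2% of its probes well above background, with no saturated spot. All 8 ES cell markers examined, among them Pou5f1 (log2 change −0.07), were well above background on all 4 arrays, and none passed the test. Nanog (−0.83, limma adjusted p = 0.0619) and Zfp42 (−0.61, adjusted p = 0.182) had an unadjusted p under 0.05, and Nanog passed with normexp background correction (−0.79, adjusted p = 0.0183). The normexp fit estimated an infinite prior weight and so gave all probes the same variance. A probe's own spread between replicates therefore does not enter any normexp p-value given here. Of 8 fibroblast markers, 3 or 4 were well above background on any array. Of 6 primitive endoderm markers, Sox7 (−2.16) and Lama1 (−1.01) fell in the limma fit, and Gata4 (−1.86), Gata6 (0.04), Dab2 (−0.03) and Sox17 (0.79) did not pass. The summed levels of the 6 primitive endoderm markers were 0.36 to 0.39 in the knock-down, against 1.24 to 1.42 in control. Lama1 made up most of each sum, with levels of 0.12 and 0.11 in the knock-down, against 1.20 and 1.05 in control. The other primitive endoderm markers lay at −3.08 or lower on every array. Of 6 trophectoderm markers, Elf5 (−1.63, well above background on 1 knock-down array) fell. Cdx2 (0.83), Tfap2c (0.82) and Gata3 (0.76) lay above both controls on both knock-down arrays, as did 20.5% of all probes tested. They did not pass (limma adjusted p from 0.0736 to 0.0794), nor did Krt8 (−0.32) and Krt18 (−0.08). The summed levels of the 6 trophectoderm markers were 4.91 to 5.06 in the knock-down, against 4.35 to 4.69 in control. Tfap2c was the largest part of each sum, with levels of 4.60 and 4.37 in the knock-down, against 3.79 and 3.54 in control. With normexp the changes of Sox7, Lama1 and Elf5 were −0.20, −0.82 and 0.13. The part of these other lineages in the histone results was not tested. FBL-knock down replicate 2 was alone on its slide, and the other 3 arrays shared another slide.

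Of the 57 histone probes, 54, of 41 genes, were tested, which needed a signal well above background on all arrays of 1 group or the other. The probes of Hist1h2ac, Hist1h2be and H1fnt, the last a linker histone of the testis, were not well above background on any array. In the limma fit over 25078 probes, 5 of the 54 histone probes were lower in FBL-knock down cells and 0 were higher at an adjusted p under 0.05, against 2.40% lower and 3.53% higher among all probes tested (9.26% of the histone probes and 5.92% of all probes in either direction). At an unadjusted p under 0.05 the histone counts were 8 lower and 2 higher, against 10.7% lower and 9.29% higher among all probes tested. One of the 5 calls, at a Hist1h1d probe, passed the filter only through the control arrays. With a signal well above background required on all 4 arrays, 5 of 53 histone probes fell, the other 4 and one of Hist3h2ba, and 0 rose, against 2.81% lower and 4.08% higher among all probes tested in that fit. The 5 probes that fell read Hist1h1d, Hist2h2be, Hist1h1c, Hist1h2bc and Hist3h2a. All 5 were among the 34 tested probes of clustered genes, of linker and of core histones. None was among the 20 tested probes of variant genes, which are too few to set no calls apart from the 2.40% of all probes tested. In these bulk samples, fewer cells of a kind and less RNA per cell cannot be told apart. The median change was −0.03 over the 54 histone probes, against −0.06 over all probes tested, and 27 histone probes lay above 0 and 27 below. Both knock-down arrays lay below both controls at 21 histone probes (38.9%, against 30.9% of all probes tested) and above both at 9 (16.7%, against 20.5%).

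The calls depended on which knock-down arrays were in the fit. Within the slide that held both controls and FBL-knock down replicate 1, the 5 changes were −1.26 to −0.96 and 0 of them passed (limma adjusted p from 0.14 to 0.496, all 5 with an unadjusted p under 0.05). In that fit 1 knock-down array stands against 2 controls and is assumed to vary as they do. Without FBL-knock down replicate 1 the 5 changes were −2.92 to −0.85, and not all of them passed. The largest fall, of Hist1h1d, rests there on an array on which its probe was not well above background. In a fit of 1 probe per gene, the one with the highest mean level, 3 histone genes fell and 0 rose, against 2.58% lower and 3.82% higher among all 19338 genes and probes without a gene name in that fit; Hist1h1d and Hist3h2a were then read by their other probe.

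**Figure D1:**
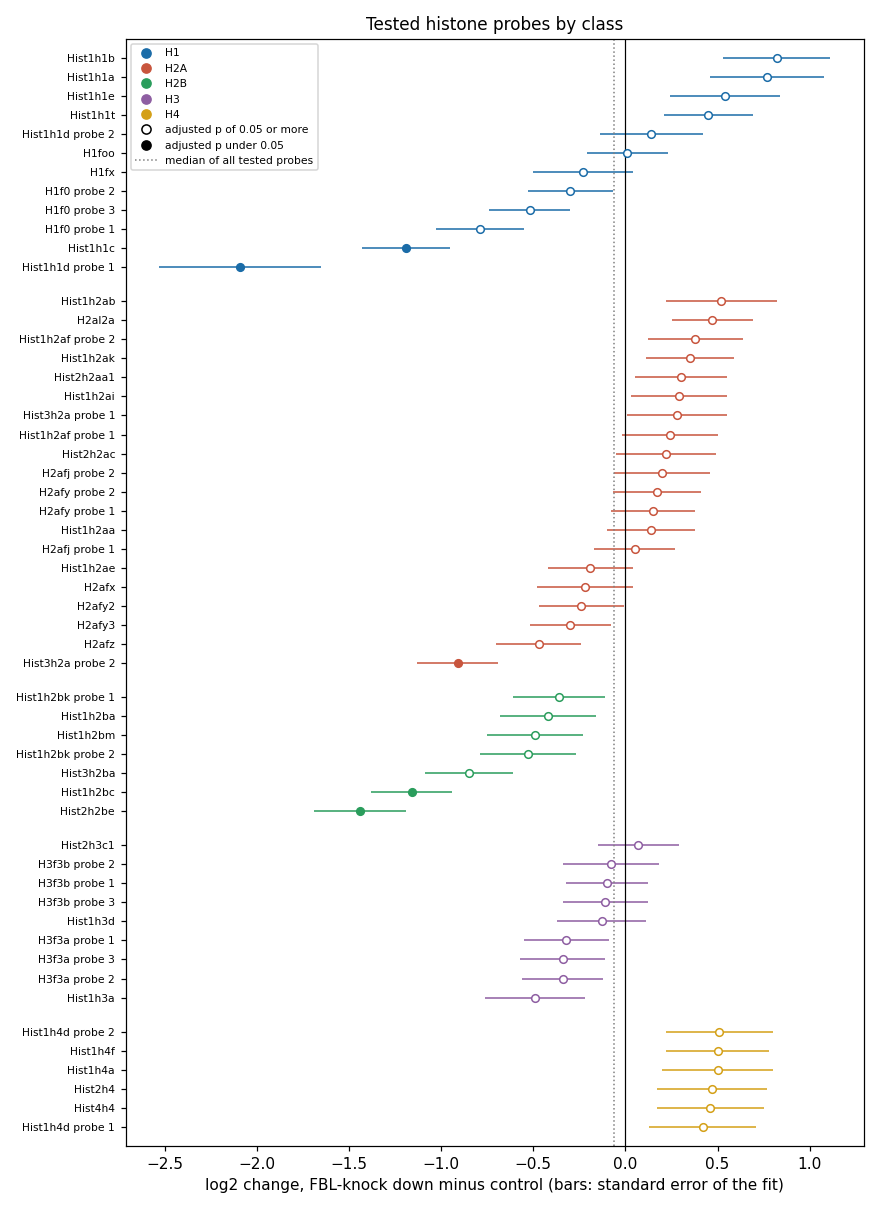
Log2 change, FBL-knock down minus control, of the 54 tested histone probes grouped by class. Points are the fitted change, bars its standard error, filled points passed limma at an adjusted p under 0.05, and the dotted line is the median of all tested probes, −0.06. All 7 H2B probes lie below 0 and all 6 H4 probes above it.

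The promoters of several members are shown beside their values, as the 300 bases from 250 before to 50 after the start of the gene in RefSeq on GRCm38.p6, written 5′ to 3′ on the strand of the gene. Of the 44 genes with a probe, 38 had an entry, with 39 promoters. Capitals mark matches, on either strand, to 5 motifs known from histone promoters: the TATA box TATAAA, the CCAAT box CCAAT, the octamer ATTTGCAT of H2B genes, the element AAACACA of H1 genes and the H4 element GGTCCG. No matches overlap in the 5 promoters shown. Of the histone promoters, 48.7% held TATAAA, 82.1% CCAAT, 28.2% the octamer, 25.6% AAACACA and 15.4% GGTCCG, against 13.6%, 37.4%, 1.74%, 7.18% and 8.25% of all 32851 promoters of the same length. A match is a stretch of letters and does not show that a factor binds there.

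Among the linker histones, the H1 genes of the chromosome 13 cluster had changes in both directions, of which only falls passed the test. Hist1h1c, the gene of H1.2, had levels of −0.35 and −0.39 in FBL-knock down cells, against 1.02 and 0.62 in control cells. The arrays of the 2 groups lay well apart, and the level fell 2.28-fold (log2 change −1.19 ± 0.24 SE, limma adjusted p = 0.0182). Hist1h1b, the gene of H1.5, had levels of 5.46 and 5.50 in the knock-down, against 5.07 and 4.24 in control. Both knock-down arrays were the higher ones, but control 2 lay 0.83 below control 1 and the change of 0.82 ± 0.29 SE did not pass (limma adjusted p = 0.145). With normexp background correction it passed (0.82, limma adjusted p = 0.0138), in a fit that left the distance between its controls out of the variance. It also passed with a variance trend (adjusted p = 0.0423). Hist1h1a, the gene of H1.1, had 1.95 and 2.27 in the knock-down, against 1.79 and 0.89 in control, a change of 0.77 ± 0.31 SE (limma adjusted p = 0.199; 0.0413 with normexp). Hist1h1e and the testis gene Hist1h1t had changes of 0.54 and 0.45, which did not pass (limma adjusted p = 0.365 and 0.34).

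The promoters of Hist1h1c, which fell, and Hist1h1b, which had the largest positive change among the 54 histone probes, are given because both carry the same H1 elements. The Hist1h1c window is chr13:23738557-23738856 on the plus strand and the Hist1h1b window chr13:21780576-21780875 on the minus strand.
Hist1h1c: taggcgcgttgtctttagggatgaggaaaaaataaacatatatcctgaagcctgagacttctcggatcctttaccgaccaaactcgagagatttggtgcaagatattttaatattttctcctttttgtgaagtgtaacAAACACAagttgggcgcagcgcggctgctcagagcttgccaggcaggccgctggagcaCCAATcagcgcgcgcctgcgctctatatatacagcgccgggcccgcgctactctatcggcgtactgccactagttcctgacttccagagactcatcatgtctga
Hist1h1b: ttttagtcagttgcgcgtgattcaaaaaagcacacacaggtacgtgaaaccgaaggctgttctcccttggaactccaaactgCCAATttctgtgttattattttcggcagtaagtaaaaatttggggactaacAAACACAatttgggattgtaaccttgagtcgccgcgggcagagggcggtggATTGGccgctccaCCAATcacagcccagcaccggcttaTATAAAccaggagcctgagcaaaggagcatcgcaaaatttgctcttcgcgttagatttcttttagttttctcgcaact

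Both windows held AAACACA and CCAAT, and the Hist1h1b window also held TATAAA. Of the 6 clustered H1 genes with an entry, 5 held AAACACA (83.3%) and all 6 held CCAAT, so these motifs were shared by members with changes in either direction.

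Hist1h1d, the gene of H1.3, was read by 2 probes that disagreed. Probe 1 had levels of −5.48 and −7.14 in the knock-down, against −4.15 and −4.30 in control, and fell in the fit (log2 change −2.09 ± 0.44 SE, limma adjusted p = 0.0227). Its signal stood well above background in both controls but in FBL-knock down replicate 1 only, and with normexp background correction its change was −0.56 and did not pass (limma adjusted p = 0.172). Probe 2 had 1.14 and 1.27 in the knock-down, against 1.45 and 0.69 in control, a change of 0.14 ± 0.28 SE with the groups overlapping (limma adjusted p = 0.845). The call for Hist1h1d therefore rests on the probe that 1 knock-down array did not measure well above background, and it is lost when all 4 arrays must measure it.

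Outside the clusters, H1f0 encodes the linker histone H1.0, which accumulates in differentiated and non-dividing cells. At all 3 H1f0 probes both knock-down arrays lay below both controls, as at 30.9% of all probes tested. Probe 1 of H1f0 had levels of −3.74 and −4.00 in the knock-down, against −2.88 and −3.28 in control (log2 change −0.79 ± 0.24 SE). Over the 3 probes the changes were −0.79, −0.52 and −0.30, and none passed (limma adjusted p = 0.102, 0.223 and 0.533; 2 with an unadjusted p under 0.05). H1fx, the gene of H1.10, had 0.12 and 0.22 in the knock-down, against 0.76 and 0.04 in control, a change of −0.23 that turned to 0.13 without control 1. H1foo, the linker histone of the oocyte, had −2.98 and −2.93 against −2.90 and −3.04 in control, a change of 0.01 ± 0.22 SE.

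H2A was represented by 17 genes with 21 probes. Of these, 20 probes of 16 genes were tested, and 1 fell and 0 rose (limma). Among all probes tested 2.40% fell and 3.53% rose. At an unadjusted p under 0.05 (limma) 1 H2A probe was lower and 0 higher, against 10.7% and 9.29% of all probes tested. The median H2A change was 0.18, and 14 of the 20 probes lay above 0. Hist3h2a, the H2A gene of the chromosome 11 cluster, held the single call, again at 1 of 2 probes. Its probe 2 had levels of 0.09 and 0.19 in the knock-down, against 1.12 and 0.97 in control. The arrays of each group lay close together and the level fell 1.88-fold (log2 change −0.91 ± 0.22 SE, limma adjusted p = 0.0442; 0.0516 with the 75th percentile taken over bright probes). Probe 1 of Hist3h2a had 8.48 and 8.62 in the knock-down, against 8.59 and 7.94 in control, with overlapping groups and a change of 0.28 ± 0.27 SE (limma adjusted p = 0.624).

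The Hist3h2a promoter, chr11:58954435-58954734 on the plus strand, is shown because the gene had the only H2A call.
Hist3h2a: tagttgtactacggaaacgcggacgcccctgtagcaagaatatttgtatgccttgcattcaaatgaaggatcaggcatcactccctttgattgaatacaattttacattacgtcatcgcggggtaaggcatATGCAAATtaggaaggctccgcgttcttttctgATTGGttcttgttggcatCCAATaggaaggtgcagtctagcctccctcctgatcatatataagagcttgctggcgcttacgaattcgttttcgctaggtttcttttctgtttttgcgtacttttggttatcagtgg

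It held the octamer, read on the other strand, and CCAAT on both strands. The octamer was found in 6 of the 10 clustered H2A promoters and CCAAT in all 10.

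The 9 tested probes of other clustered H2A genes had changes of −0.19 to 0.52, and none passed the test. Hist1h2ab had the highest change, 0.52 ± 0.30 SE, with levels of 3.88 and 3.95 in the knock-down, against 3.83 and 2.96 in control (limma adjusted p = 0.373). Control 1 lay next to both knock-down arrays and control 2 lay lower. Hist1h2aa, a testis H2A gene by its annotation, had the highest mean level of the H2A probes, with 9.52 and 9.50 in the knock-down, against 9.59 and 9.15 in control, and a change of 0.14 ± 0.24 SE (limma adjusted p = 0.809). Hist1h2ae was the only other clustered H2A gene with a negative change, −0.19 ± 0.23 SE.

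Of the H2A variants, H2afz, which encodes H2A.Z, a variant of promoter nucleosomes, had levels of 8.13 and 7.99 in the knock-down, against 8.69 and 8.38 in control. Both knock-down arrays were below both controls, and the change was −0.47 ± 0.23 SE (limma adjusted p = 0.301). H2afx, which encodes the H2A.X phosphorylated at DNA breaks, had 7.83 and 7.98 against 8.41 and 7.83 in control, a change of −0.22 ± 0.26 SE (limma adjusted p = 0.706). Its groups touched at 7.83, and the change turned to 0.07 without control 1. The macroH2A gene H2afy had changes of 0.15 and 0.17 at its 2 probes, and H2afy2 had −0.24 ± 0.23 SE. The macroH2A pseudogene H2afy3 had −0.30, H2afj had 0.05 and 0.20 at 2 probes, and the testis gene H2al2a had 0.47 ± 0.22 SE. None of the 9 variant H2A probes passed the test (limma, adjusted p from 0.283 to 0.927, 0 with an unadjusted p under 0.05).

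Set against the other histones, H2A probes had the higher median change, 0.18, against −0.18 over the 34 other tested histone probes, which is a difference of 0.37 between the medians. Of the 34 other probes 4 fell and 0 rose (limma), against 2.40% and 3.53% of all probes tested, and 13 lay above 0. At an unadjusted p under 0.05 (limma) 7 were lower and 2 higher, against 10.7% and 9.29% of all probes tested. The difference was 0.21 among clustered genes alone. It carries no test, and the other histones were themselves not of 1 kind, since the H2B and H4 medians, given below, lay on opposite sides of the H2A median. The order of the classes by median change was H4, H2A, H1, H3 and H2B.

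H2B had negative changes throughout. At all 7 tested probes, of 6 genes, both knock-down arrays lay below both controls, against 30.9% of all probes tested, and the median change was −0.53. The 7 probes may not be separate readings. Hist1h2bk probe 2 and Hist1h2bm had nearly the same level on every array, and cross-reading among H2B probes was not tested. Of the 7 probes 2 passed the test as lower, against 2.40% of all probes tested. Hist1h2bc had levels of 0.25 and 0.12 in the knock-down, against 1.43 and 1.26 in control, a 2.24-fold fall (log2 change −1.16 ± 0.22 SE, limma adjusted p = 0.0152). Hist2h2be, of the chromosome 3 cluster, had −3.60 and −4.05 against −2.48 and −2.29 in control, a 2.72-fold fall (log2 change −1.44 ± 0.25 SE, limma adjusted p = 0.00815). For Hist2h2be the size depended on background handling, with a change of −0.35 under normexp that did not pass (limma adjusted p = 0.493), whereas Hist1h2bc kept −0.94 there (adjusted p = 0.00252).

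Hist3h2ba, the H2B gene of the chromosome 11 cluster, came next, with levels of 1.11 and 1.06 in the knock-down, against 2.16 and 1.71 in control. Its change of −0.85 ± 0.24 SE missed the threshold (limma adjusted p = 0.0748). It passed under normexp (−0.87, adjusted p = 0.00693), where all probes had the same variance, and with a variance trend (adjusted p = 0.0143). The change was −0.63 without control 1 and −1.08 without control 2. The remaining 4 probes, of Hist1h2bk, Hist1h2bm and the testis gene Hist1h2ba, had changes of −0.53 to −0.36 and did not pass (limma adjusted p from 0.285 to 0.484). At these 4 probes the knock-down arrays lay close beneath control 2, with 2.40 and 2.54 against 3.29 and 2.72 in control for Hist1h2bk probe 2. All 7 H2B probes also lay below 0 against each control alone, with medians of −0.81 against control 1 and −0.25 against control 2.

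The promoter of Hist1h2bk, chr13:22035571-22035870 on the plus strand, is shown for the H2B genes, since Hist1h2bc and Hist2h2be had no promoter entry. Neither probe of Hist1h2bk passed the test.
Hist1h2bk: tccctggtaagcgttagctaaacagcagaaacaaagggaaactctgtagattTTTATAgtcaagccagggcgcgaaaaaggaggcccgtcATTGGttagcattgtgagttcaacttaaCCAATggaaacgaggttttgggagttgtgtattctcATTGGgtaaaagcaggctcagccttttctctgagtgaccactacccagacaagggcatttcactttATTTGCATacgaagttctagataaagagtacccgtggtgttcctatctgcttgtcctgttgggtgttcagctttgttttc

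It held the octamer, TATAAA read on the other strand, and CCAAT on both strands. Among the 6 clustered H2B promoters, all held CCAAT and 4 held the octamer (66.7%). H2A and H2B genes often lie head to head around a shared promoter. Of 10 such pairs in the table with starts within 1000 bases, 1 had a probe for both genes, Hist1h2ba (−0.42) and Hist1h2aa (0.14), whose starts are 281 bases apart.

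H3 was read by 9 tested probes with a median change of −0.13, and 0 passed (limma, 0 with an unadjusted p under 0.05). The variant H3.3, which is laid down outside replication, is made from H3f3a and H3f3b. H3f3a had changes of −0.32, −0.34 and −0.34 at its 3 probes (limma adjusted p from 0.458 to 0.488). At each of them both knock-down arrays lay below both controls, as at 30.9% of all probes tested. Probe 1 of H3f3a had levels of 6.64 and 6.44 in the knock-down, against 6.92 and 6.80 in control. H3f3b had changes of −0.10, −0.08 and −0.11, with overlapping groups at all 3 probes, and at probe 3 levels of 7.24 and 7.34 against 7.56 and 7.24 in control. Of the clustered H3 genes, Hist1h3a had −0.49 ± 0.27 SE, Hist1h3d −0.13 ± 0.24 SE and Hist2h3c1 0.07 ± 0.22 SE.

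H4, whose genes encode nearly the same protein, had changes on the other side of 0 from H2B, none of which passed the test. Its 6 tested probes, of 5 genes, had changes of 0.42 to 0.51 with a median of 0.48 (limma adjusted p from 0.379 to 0.47, 0 with an unadjusted p under 0.05). The highest was 0.51 ± 0.29 SE, at Hist1h4d probe 2, which had levels of 4.55 and 4.78 in the knock-down, against 4.58 and 3.74 in control. Hist1h4f had levels of 7.38 and 7.49 in the knock-down, against 7.33 and 6.55 in control, a change of 0.50 ± 0.28 SE (limma adjusted p = 0.379). Hist4h4, on chromosome 6, had 3.76 and 3.86 against 3.75 and 2.94 in control, a change of 0.46 ± 0.29 SE. In these genes the knock-down arrays and control 1 lay together and control 2 lay apart. Genes on chromosomes 13, 3 and 6 had nearly the same pattern, and cross-reading among H4 probes was not tested.

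The Hist1h4f promoter, chr13:23551619-23551918 on the minus strand, is shown for the H4 element.
Hist1h4f: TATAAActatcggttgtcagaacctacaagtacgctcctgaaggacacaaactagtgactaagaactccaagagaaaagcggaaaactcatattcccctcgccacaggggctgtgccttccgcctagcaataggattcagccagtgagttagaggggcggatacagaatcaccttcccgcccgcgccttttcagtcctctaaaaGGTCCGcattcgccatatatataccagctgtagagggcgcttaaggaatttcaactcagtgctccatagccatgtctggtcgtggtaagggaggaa

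It held GGTCCG near the start of the gene and TATAAA at the far edge of the window, and no CCAAT. Of the 4 H4 promoters with an entry, 3 held GGTCCG (75%).

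**Figure D2:**
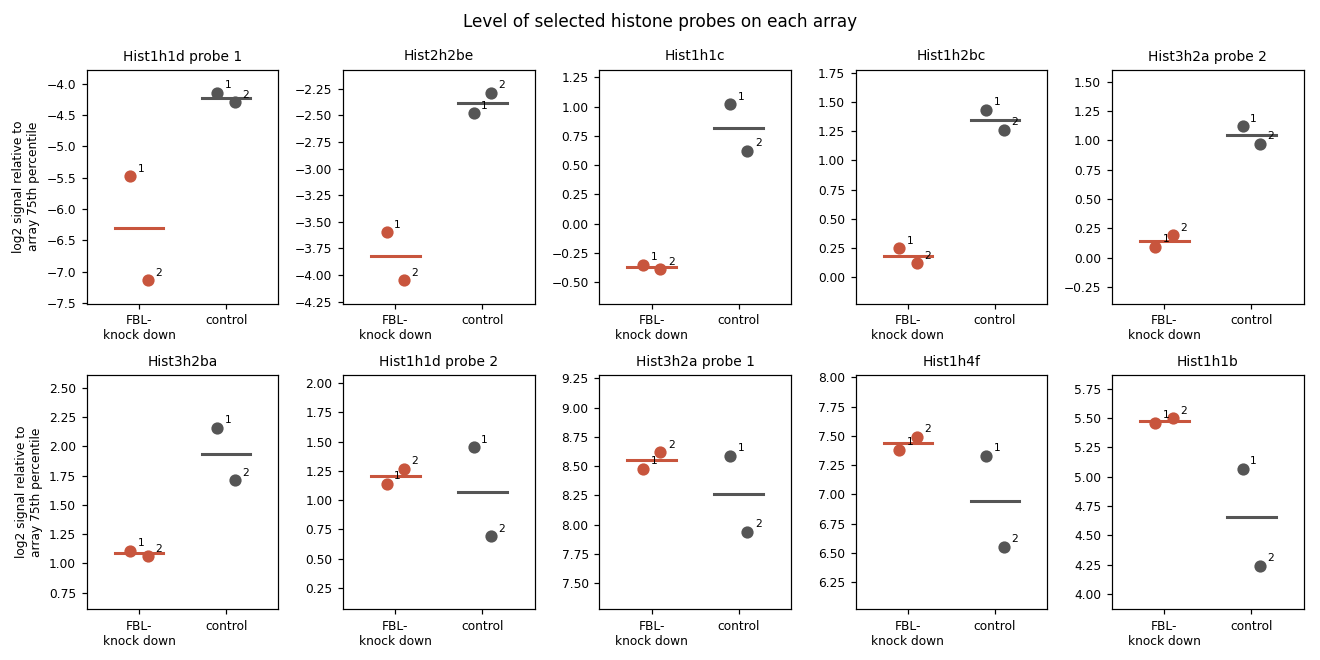
Level of 10 histone probes on each array, as log2 signal relative to the array's 75th percentile. FBL-knock down arrays are on the left and control arrays on the right of each panel, bars are group means, and numbers are replicates. Each panel has its own range. In the upper row, the 5 probes that passed the test, both knock-down arrays lie below both controls. In the lower row the controls of Hist1h4f and Hist1h1b are 0.79 and 0.83 apart.

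The 2 control samples differed from each other at the histone genes. Control 2 was below control 1 at 49 of the 54 histone probes, with a median difference of −0.44, against −0.16 over all probes tested, of which 60.3% were lower in control 2. The difference was −0.83 at H4, −0.77 at clustered H1, −0.57 at clustered H2A and −0.52 at H2B, and lay between −0.87 and −0.79 at each H4 probe. It was −0.12 at H3, where control 2 was lower at 5 of 9 probes. Within H3 it was −0.39 at the clustered genes, with control 2 lower at all 3 probes, and 0.04 at the variants. Over all variant probes it was −0.19. Only 5.1% of all probes tested had control 2 at least 0.75 below control 1. The S phase genes examined had a median difference of −0.17 and the mitosis genes −0.09. The cause of the difference between the controls was not tested.

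The size of the histone changes therefore depended on the control, and the median turned sign with it for H2A and for H1 as a whole (−0.36 against control 1 and 0.11 against control 2). Against control 1 alone the median H4 change was 0.07, the clustered H1 change 0.12 and the H2A change −0.05. Against control 2 alone they were 0.90, 0.67 and 0.44. H3 as a whole kept its sign, with −0.30 against control 1 and −0.18 against control 2. The median of the 3 clustered H3 probes turned sign, with −0.33 against control 1 and 0.06 against control 2. That of the H3 variants did not, with −0.29 and −0.30. Without control 1 the 6 H4 probes had changes of 0.84 to 0.92. Without control 2 the 7 H2B probes had changes of −1.34 to −0.62. H2B lay below 0 and H4 above it against either control. Over all 54 histone probes the median was −0.10 against control 1 and 0.11 against control 2. The 5 probes that fell had changes of −0.84 or lower against each control.

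**Figure D3:**
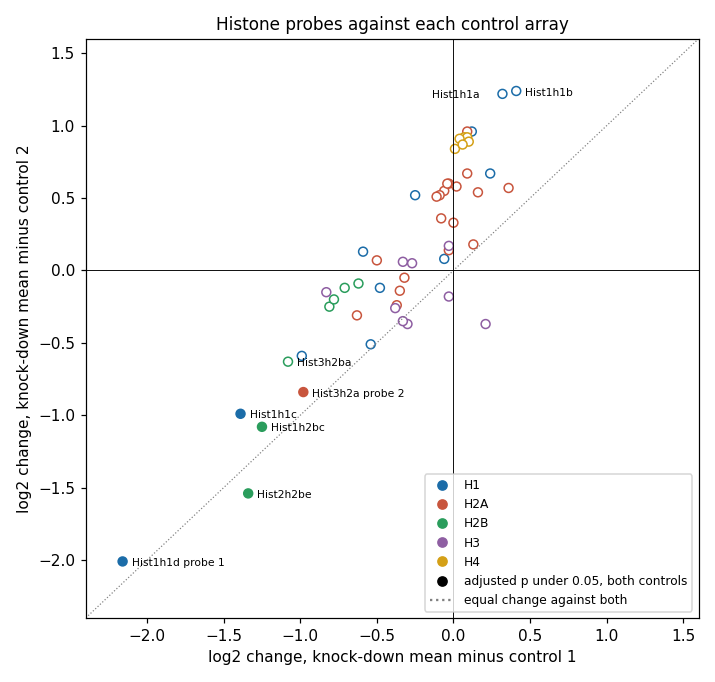
Log2 change of the 54 tested histone probes against control 1 alone (x axis) and control 2 alone (y axis), from the mean of both FBL-knock down arrays. Filled points passed limma with both controls in the fit, and the dotted line is equal change. Called probes lie near the line in the lower left, and the 6 H4 probes lie at 0.84 or more against control 2 and close to 0 against control 1.

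The machinery that makes histone mRNA and handles histones was examined as 4 lists, 1 probe per gene, and no gene of them passed the test in either direction, against 3.53% of all probes tested higher and 2.40% lower. Of 23 genes of histone transcription and mRNA processing, 3 were lower and 1 higher at an unadjusted p under 0.05 (limma), against 10.7% lower and 9.29% higher among all probes tested, and the median change was −0.23. Slbp, which encodes the protein that binds the histone stem-loop, had levels of 3.65 and 3.42 in the knock-down, against 4.02 and 4.22 in control. Both knock-down arrays were below both controls, and the change was −0.58 ± 0.23 SE (limma adjusted p = 0.192). Npat, the coactivator of clustered histone genes in S phase, had a change of 0.13 ± 0.24 SE, and Casp8ap2, whose product FLASH acts in histone mRNA processing, one of 0.11 ± 0.22 SE.

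The 30 histone chaperone and variant exchange genes had a median change of −0.10, with 3 lower and 0 higher at an unadjusted p under 0.05 (limma). The 25 S phase genes had a median of −0.11, with 2 lower and 0 higher on that count, and the 14 mitosis genes −0.22, also with 2 lower and 0 higher. The same shares of 10.7% and 9.29% apply to these counts, and the median over all probes tested was −0.06.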

How the data were processed

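Total RNA of 4 mouse ES cell samples was labelled with Cy3 and hybridised to one-colour Agilent arrays. The deposited intensity values are processed signals from Agilent Feature Extraction 10.7.3.1, per the submitters' processing notes and the file headers. The authors' deposited value table holds log2 values. It matched the scanner values after a shift per array, so scanner intensity was used. Probe signals, averaged over spots that were not marked as outliers, were scaled as log2 signal minus the array's 75th percentile. Probes whose signal was well above background in all samples of the knock-down or of the control were tested with limma 3.58.1 (R 4.3.3, lmFit and eBayes, two-sided, no covariates) with Benjamini-Hochberg adjustment over all 25078 of them and a threshold of 0.05. The test was checked on simulated data. Probes were named from their accession through the RefSeq table of GRCm38.p6, which gave 24375 probes 1 gene and left 16799 unnamed. Histone genes were matched by symbol (12 genes with a probe) or older symbol (32), and the pseudogene H2afy3 was kept.

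Named genes were Fbl, every called histone probe, the variant genes, for each class the probe with the highest mean level and those with the largest change in each direction, and Slbp, Npat and Casp8ap2. Hist3h2ba, Hist1h1a, Hist1h1e, Hist1h2ae, Hist1h3d, Hist4h4 and the remaining genes named outside that rule were chosen after their values were seen. The members and the gene lists were chosen with earlier results of these data known. Alternatives covered background correction (normexp, offset 50, on the median signal, since the files used here hold no mean signal), scaling, filtering, the variance prior, the probe chosen per gene, the slide, replicate blocks and each array left out. Promoter sequences come from RefSeq.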

Additional observations from a re-analysis of the deposited data

How the results depend on the processing

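The median change of the histone probes stayed between −0.10 and 0.14 under the alternatives tried, against −0.03. The median level of these probes had a replicate SD of 0.304. The count of lower histone probes, 5, became 0 with no filter on dim probes, where 41124 probes were tested and 0 passed in all (limma, 3882 with an unadjusted p under 0.05), and 0 with the slide as a block, which leaves FBL-knock down replicate 2 out of the comparison. It was 3 with 1 probe per gene and 3 with the mean over the probes of a gene, because the other probes of Hist1h1d and Hist3h2a were not called, and 0 to 11 with an array left out. The count of higher probes, 0, became 2 with normexp, 1 with a variance trend, 2 with a robust trend and 0 to 16 with an array left out. With normexp 800 of all 25078 probes tested were higher and 478 lower, and the counts over all probes for the trend fits and for arrays left out are given below. The H2A difference of 0.37 became 0.26 with quantile normalization, 0.29 with no filter and 0.28 with the mean over probes. It became 0.21 for clustered genes only and 0.27 to 0.54 with an array left out. The cause of these shifts was not tested. With an array left out, the processing list had 0 to 1 genes higher and 0 to 4 lower, the chaperone list 0 to 1 higher and 0 to 2 lower, the S phase list 0 to 1 higher and 0 to 1 lower, and the mitosis list 0 higher and 0 to 2 lower. The processing list also had 1 lower gene with normexp and 2 with a robust trend, and the chaperone list 1 with a robust trend. Small changes that turned sign with an array left out ranged from −0.06 (without control 2) to 0.08 for H1foo, −0.59 to 0.13 (without control 1) for H1fx, −0.50 to 0.07 (without control 1) for H2afx, −0.37 to 0.21 (without control 2) for H3f3b probe 2, −0.27 to 0.05 (without control 1) for H3f3b probe 3 and −0.33 to 0.06 (without control 1) for Hist1h3d. Without control 2 at the low end, the ranges were −0.03 to 0.14 and −0.11 to 0.51 for H2afj, −0.25 to 0.52 for Hist1h1d probe 2, −0.08 to 0.36 for Hist1h2aa, −0.06 to 0.55 for Hist1h2af probe 1, −0.03 to 0.60 for Hist1h2ai, −0.09 to 0.52 for Hist2h2ac, −0.03 to 0.17 for Hist2h3c1 and −0.04 to 0.60 for Hist3h2a probe 1. H2afy probe 2 ranged from −0.002 (without FBL-knock down replicate 1) to 0.33. H1foo also turned with normexp (−0.02) and with the slide as a block (−0.01). H2afy2 turned with normexp (0.11). Same-numbered arrays did not deviate together (correlation 0.023 over probes). With the replicate block 6 histone probes were lower and 0 higher, and 1262 of all probes were higher and 1026 lower. Over all probes, 884 were higher and 601 lower, against 3170 and 2586 without control 1, 1573 and 1961 without control 2, 567 and 396 without FBL-knock down replicate 1, 459 and 224 with the slide as a block, 1223 and 975 with a variance trend and 1379 and 1130 with a robust trend. The number of arrays limits the precision, and the dim probes of Hist1h1d and Hist2h2be depend on how background is treated.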
